A study of Mus musculus with 11 samples.

Results

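The RNA-Seq libraries of hematopoietic stem cells (HSC) from control mice, 4 of the 11 libraries in the series, were examined on their own. They were selected by the genotype in their labels and by no measured value. Each library was made from an aliquot of 1000 HSC sorted from the bone marrow of wild-type C57BL/6 mice aged 8 weeks, with no treatment named. The study gives its HSC gate as Lin- CD48- c-Kit+ Sca1+ CD135- CD150+, where Lin stands for a mixture of antibodies to mature blood lineages, but a figure legend on these samples does not name CD48. The study's methods call the control mice littermates, and elsewhere the study's littermate controls carry the unrecombined knock-in allele, NA10hd LSL/+. That genotype is not restated for the RNA-Seq mice, which the labels call wild type. Figure legends of the study call the libraries biological replicates, but the sources do not say whether the 4 aliquots came from separate mice. The spread between libraries reported here may therefore be in part technical. The libraries are named replicates 1 to 4 here.

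HSC sit at the top of the blood hierarchy and give rise to all mature blood lineages while renewing themselves. In the adult marrow most of them are quiescent, and signals of the marrow niche, such as stem cell factor through its receptor Kit, support their maintenance. Their identity is kept by a network of transcription factors that includes Gata2, Tal1, Lmo2, Runx1, Meis1, Hlf and the posterior Hoxa genes.

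Total counts were 5464815, 10639180, 12610189 and 7190197 in replicates 1 to 4. Between 15485 and 15899 genes had a count in a library, 13682 genes had one in all 4, and 18087 of 37991 gene IDs had one in any. Values are given as CPM, the count of a gene per 1e6 counts of its library, scaled by TMM factors of 0.986 to 1.02. Levels of different genes are ranked as CPM per kilobase (kb) of exonic length, except where CPM is stated, which is not corrected for length. At 1 CPM or more in every library 11837 genes were found, and 8556 were at 10 CPM or more in every library. A gene that could be counted and had 0 counts in all 4 libraries could have been present at up to 0.0836 CPM, the level that 3 counts over the 4 libraries give, which covers counting error only and does not hold for genes whose exons lie inside those of other genes. Genes annotated as protein-coding took 97.0% ± 0.117 of the counts (SD, n = 4), pseudogenes 1.93% ± 0.102 and lincRNA 0.438% ± 0.0238. Chi-square per degree of freedom between libraries, which grows with depth, ran from 6.65 for replicates 1 and 4 to 24.6 for replicates 2 and 3, the deepest pair. No pair agreed within counting noise. The share of the 11688 genes that passed a filter on low counts and lay within 1.5-fold of each other was highest for replicates 1 and 4, at 86.5%, and lowest for replicates 1 and 3, at 76.4%.

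The 3 genes behind the positive arm of the gate were all clearly expressed. Ly6a, which encodes Sca1 (Ensembl ID ENSMUSG00000075602, NCBIM37 chromosome 15, 74825308 to 74828064), had 294, 313, 331 and 258 CPM in replicates 1 to 4. Kit (ENSMUSG00000005672, chromosome 5, 75970941 to 76052747) had 355, 311, 246 and 360 CPM. Slamf1, which encodes CD150 (ENSMUSG00000015316, chromosome 1, 173697258 to 173731315), had 141, 121, 66.9 and 103 CPM. Replicate 3 was the lowest library for both Kit and Slamf1 and the highest for Ly6a. Per kb, Ly6a stood at 365, Kit at 54.5 and Slamf1 at 31.8 CPM. The gate selected these cells by the surface proteins, so the 3 levels describe the sort and are no finding.

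Transcripts of the negative arm were low or not found. In replicates 1 to 4, Flt3, the receptor CD135, had 17.6, 8.39, 2.09 and 14.4 CPM, with replicate 3 again the lowest. Cd48 stayed at 3.34 CPM or less and Itgam, a myeloid integrin, at 3.86 CPM or less in every library. Cd4, a T cell coreceptor, had counts in replicates 1 and 4 and 0 counts in replicates 2 and 3. Cd2, Cd3e, Cd8a and Ly6g, which mark T cells and granulocytes, had 0 counts in all 4.

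All 23 long-term HSC markers reached 1 CPM in every library and 22 reached 10 CPM, against 11837 and 8556 of all 37991 IDs. The median of the list was 29.4 CPM per kb, beside 9.66 over the 11688 genes that passed the filter on low counts. Both depended on the length used, at 60.4 and 14.6 with length capped at 3 kb and at 40.5 and 11.8 with the longest transcript. Ifitm1, a membrane protein of the interferon response, was its highest member at 1349 CPM per kb, and Sult1a1, a sulfotransferase, stood at 250 CPM per kb. Hoxb5, the homeobox gene that marks long-term HSC, had the lowest mean CPM of the list, not corrected for length, with 16.2, 9.15, 17.9 and 11.0 CPM.

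Some of these markers differed little between libraries, and others differed more. The following examples were chosen after their values were seen. Procr, the endothelial protein C receptor (EPCR), had 141, 129, 125 and 137 CPM. Cd27, a TNF receptor family member, had 138, 150, 135 and 141 CPM. Esam, Eng and Vwf, shared with endothelial cells, had a coefficient of variation (CV) of 7.63%, 7.22% and 6.93%, beside 5.55% for Procr and 4.48% for Cd27. Sult1a1 was the least even by its dispersion, with 265, 479, 537 and 225 CPM, so that replicates 2 and 3 both lay above replicates 1 and 4. Ctnnal1, an alpha-catenin relative, had 133, 53.4, 65.0 and 84.9 CPM, and Hlf had 520, 281, 366 and 467 CPM, with replicates 2 and 3 the lower libraries for both. Replicates 1 and 4 held the 2 highest values for 14 of the 23 markers, or 60.9%, beside 21.0% of the 9437 genes at a mean of 10 CPM or more.

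**Figure D1:**
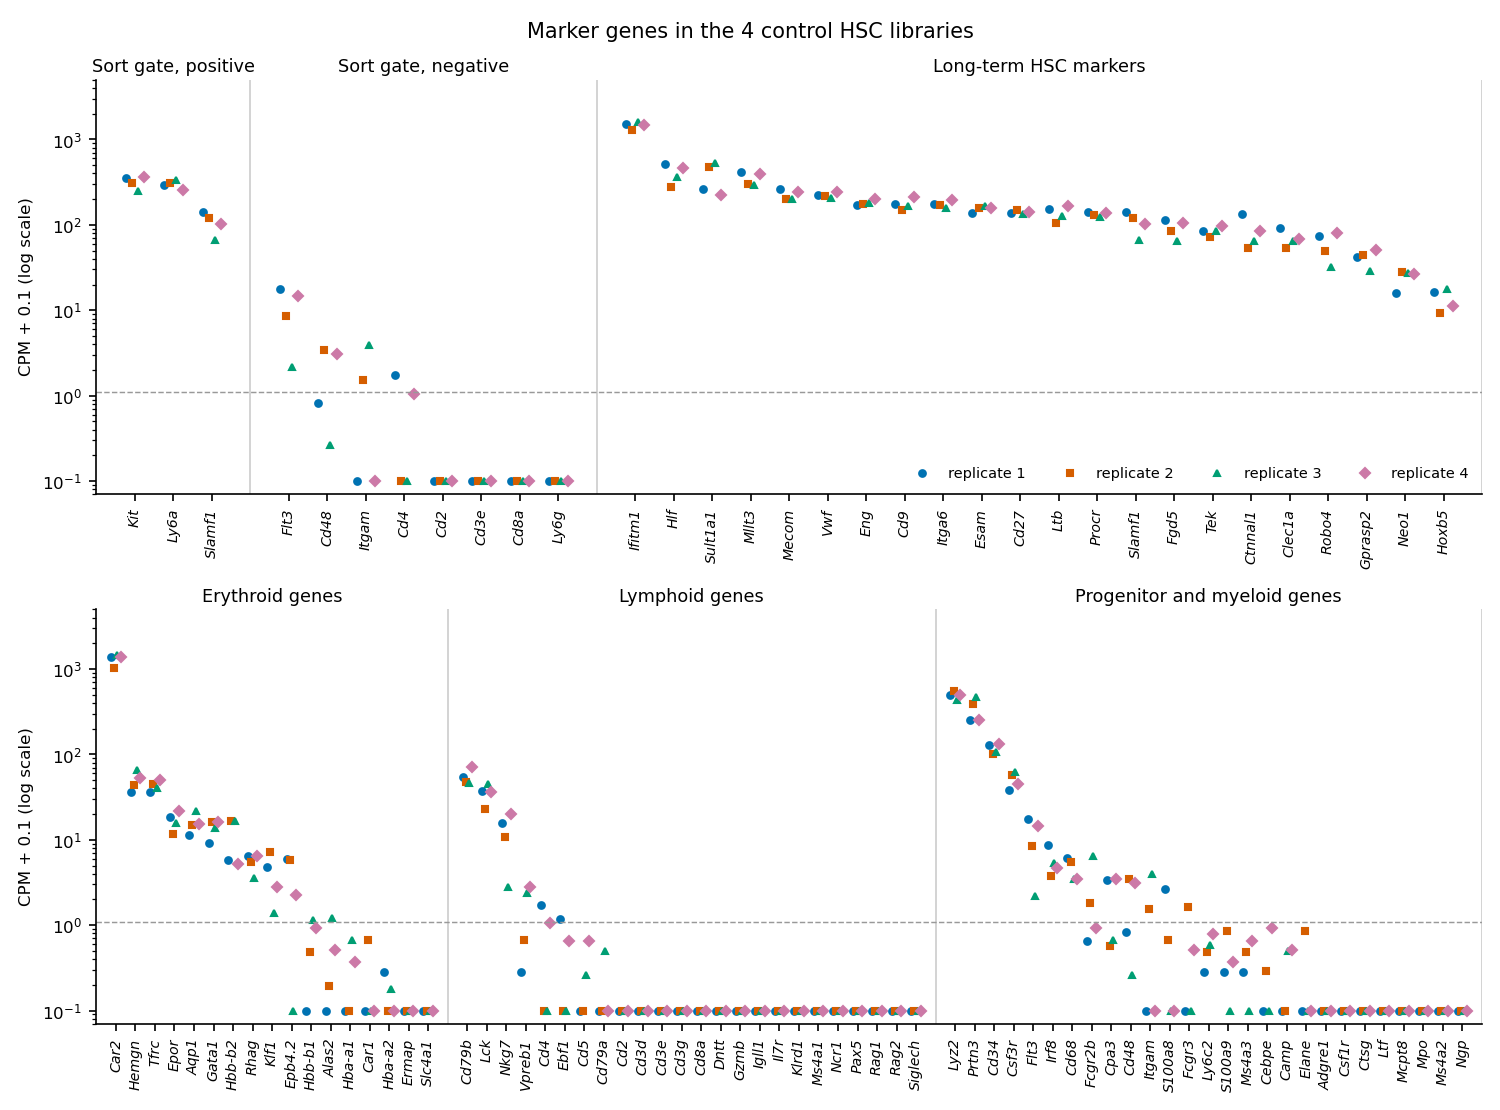
Each point is the level of a gene in 1 of the 4 control libraries, as CPM plus 0.1 on a log scale, for the sort gate, long-term HSC, erythroid, lymphoid, and progenitor and myeloid lists, with the dashed line at 1 CPM. All long-term HSC markers shown lie above that line in every library, whereas 16 lymphoid genes lie at the floor with 0 counts.

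Genes of mature lineages fell into those found in these libraries and those that were at or near 0. In bulk aliquots, a lineage transcript of HSC and one of a few other sorted cells cannot be told apart. Of 24 megakaryocyte and platelet genes, 21 were at 1 CPM or more in every library. The leading members included Nfe2, a transcription factor of platelet formation, at 183 CPM per kb, and Cd9, a tetraspanin, at 86.2. Nfe2 was very even, with 564, 532, 550 and 535 CPM. Gp6 had 0 counts. Pf4 and Ppbp, chosen after their values were seen and not divided by length, averaged 21.0 ± 5.59 and 3.09 ± 1.44 CPM.

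Of 18 erythroid genes in the table, 9 were at 1 CPM or more in every library. Car2, a carbonic anhydrase, led the list with 1390, 1028, 1450 and 1371 CPM, or 732 CPM per kb, and Hemgn and Hbb-b2 came next at 19.9 and 15.6 CPM per kb. Slc4a1 and Ermap, of the red cell membrane, had 0 counts. Hbb-b2, a beta globin, had 5.63, 16.5, 16.7 and 5.18 CPM, and Hba-a1 and Hba-a2 averaged 0.209 and 0.0655 CPM. Globin genes come in near-identical copies, so their counts are uncertain.

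Of 27 multipotent progenitor and myeloid genes, 8 had 0 counts in all libraries and 7 were at 1 CPM or more in every library. Mpo, Csf1r, Ctsg, Ltf, Ngp, Emr1 (F4/80), Mcpt8 and Ms4a2 were those at 0, which include granule proteins and the receptor of macrophage growth factor. Lyz2, lysozyme, was by contrast at 380 CPM per kb, with 499, 555, 439 and 502 CPM. Prtn3, a granule protease, followed at 197 CPM per kb and Cd34, a sialomucin, at 44.6. Prtn3 had 255, 395, 465 and 252 CPM, with replicates 2 and 3 above replicates 1 and 4, while Elane, its neighbour in function, averaged 0.191 CPM.

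Of 25 lymphoid genes, 16 had 0 counts in all 4 libraries, among them the recombinase genes Rag1 and Rag2, Il7r, Dntt, Cd3d, Cd3g, Pax5, Ms4a1, Igll1, Klrd1, Ncr1, Gzmb and Siglech, beside Cd2, Cd3e and Cd8a. The members present were Cd79b at 38.0, Nkg7 at 13.9 and Lck at 12.1 CPM per kb. Cd79b, a signalling chain of the B cell receptor, had 54.1, 47.2, 45.7 and 70.7 CPM, whereas its partner Cd79a averaged 0.101 CPM. The summed level of the list ran from 81.2 to 132 CPM.

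The endothelial and stromal lists were divided likewise. In the endothelial list 15 of 25 genes were at 1 CPM or more in every library and 1, Sox17, had 0 counts. Procr, Esam and Eng, which the long-term HSC list also holds, led it. Cdh5, Flt1, Stab1 and Plvap, chosen after their values were seen, averaged 0.289, 0.322, 0.0681 and 0.116 CPM. Pecam1, the least even member, had 9.08, 10.1, 38.1 and 14.0 CPM, highest in replicate 3. Of 19 stromal genes, 6 (Col3a1, Bglap, Dcn, Lum, Acta2 and Sp7) had 0 counts, and Runx2, a transcription factor of bone, was the highest per kb, with a mean of 84.9 ± 13.1 CPM. Col4a1 and Pdgfrb came next per kb, at 3.55 and 0.814 CPM. Lepr and Col1a1, markers of marrow stroma, averaged 0.200 and 0.102 CPM.

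Promoter sequence differed between classes of genes by their level in these libraries. RefSeq promoter windows of GRCm38.p6, from 250 bases before to 50 after the start, were matched by symbol to 16258 genes, taking the first window where a gene had more. The median ratio of observed to expected CpG dinucleotides was 0.213 for the 5804 genes with 0 counts in all control libraries. It was 0.555, 0.776 and 0.811 in the low, middle and high classes of equal size among genes with a count. These classes are by mean CPM, which is not corrected for length. The motif TATAAA, searched on both strands, was in 22.7% of the windows of genes at 0 counts and in 9.61%, 5.86% and 6.51% of the low, middle and high classes, beside 13.6% of all 32851 windows in the table. Among protein-coding genes alone the CpG ratio was 0.206 at 0 counts and 0.811 in the high class. The relation is a description across genes.

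The 250 bases before the start are shown for 4 genes of different level, 5′ to 3′ on the gene's own strand, with every CpG in capitals, so that the CpG density that differed between the level classes can be seen. Eef1a1, a translation elongation factor and the gene at rank 3 per kb, is at chr9:78481725-78481974 on the minus strand. Kit is at chr5:75574737-75574986 on the plus strand, Slamf1 at chr1:171766882-171767131 on the plus strand, and Cd3e at chr9:45009612-45009861 on the minus strand.
Eef1a1: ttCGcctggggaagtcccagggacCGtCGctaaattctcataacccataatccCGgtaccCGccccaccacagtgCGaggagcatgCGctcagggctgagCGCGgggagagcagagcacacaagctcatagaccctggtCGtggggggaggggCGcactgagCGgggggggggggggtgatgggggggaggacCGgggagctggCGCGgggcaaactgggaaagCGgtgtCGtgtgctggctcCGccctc
Kit: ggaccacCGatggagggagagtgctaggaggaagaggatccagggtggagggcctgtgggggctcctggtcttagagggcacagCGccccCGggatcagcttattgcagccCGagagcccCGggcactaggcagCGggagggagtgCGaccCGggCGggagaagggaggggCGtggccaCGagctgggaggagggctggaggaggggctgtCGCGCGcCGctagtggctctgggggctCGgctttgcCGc
Slamf1: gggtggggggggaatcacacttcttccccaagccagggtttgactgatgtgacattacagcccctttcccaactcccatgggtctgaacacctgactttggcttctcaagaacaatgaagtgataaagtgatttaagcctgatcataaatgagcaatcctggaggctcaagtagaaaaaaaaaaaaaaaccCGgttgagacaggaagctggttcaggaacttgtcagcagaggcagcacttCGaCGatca
Cd3e: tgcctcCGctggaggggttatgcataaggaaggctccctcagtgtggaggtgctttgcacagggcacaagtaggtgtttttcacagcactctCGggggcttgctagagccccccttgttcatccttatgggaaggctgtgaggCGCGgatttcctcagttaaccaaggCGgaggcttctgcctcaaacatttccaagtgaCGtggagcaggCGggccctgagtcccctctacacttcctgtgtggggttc
In the order shown they hold 18, 17, 3 and 7 CpG, and the 250-base ratios are 0.652, 0.601, 0.216 and 0.344. Slamf1, an expressed sort marker, has fewer CpG than Cd3e, which had 0 counts, so the classes overlap gene by gene. No TATAAA was in any of the 4. A window for Ly6a was not used here.

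**Figure D2:**
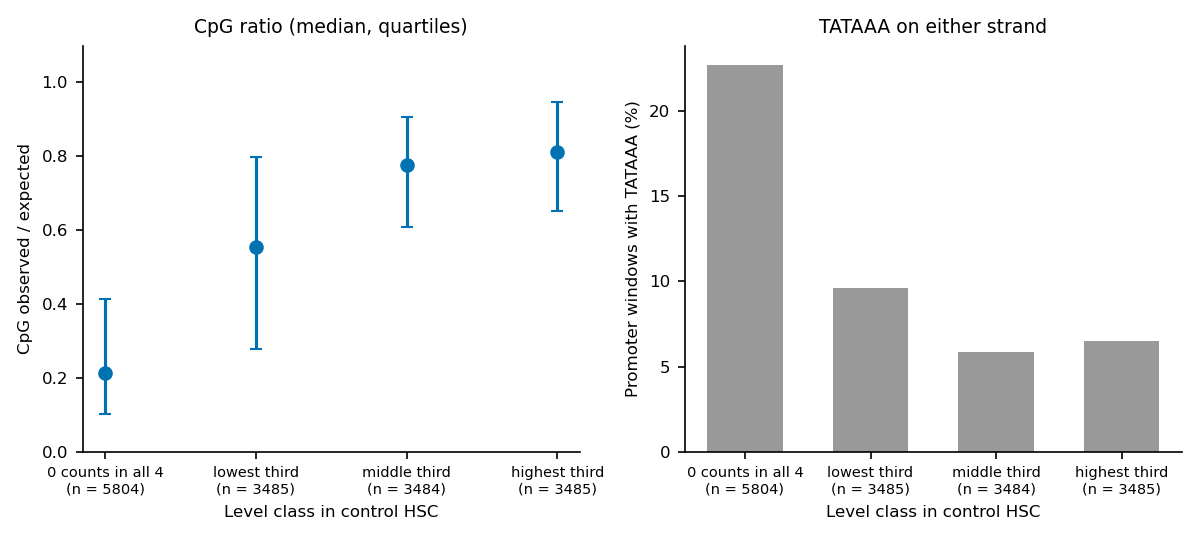
The left panel gives the median and quartiles of the observed over expected CpG ratio, and the right panel the percent of 300-base promoter windows with TATAAA on either strand, for genes with 0 counts and for 3 classes of rising mean CPM (n, genes). The CpG median rises from 0.213 to 0.811 and the TATAAA share falls from 22.7% to 6.51% between the outer classes.

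Genes of translation and of the mitochondrial genome were among the highest. The 100 highest genes held 26.5% ± 0.225 of the counts, and among the 20 highest per kb were 14 cytosolic ribosomal protein genes and 4 genes of the mitochondrial genome. The mitochondrial cytochrome oxidase subunit mt-Co1 was the highest at 14194 ± 2351 CPM per kb, and it had 25008, 24039, 16865 and 21810 CPM, lowest in replicate 3. Rplp1 followed at 8324 ± 734, Eef1a1 at 6780 ± 837, mt-Cytb at 5776 ± 640 and B2m, the light chain of MHC class I, at 5249 ± 355 CPM per kb. The ranks from 6 to 20 included Rps4x, Rps3a, Rplp0, Rpl8, Rpl4, Rps12, mt-Nd1, Rpsa, Rpl32, Rps14, mt-Nd4 and Rpl3, from 4494 down to 2464 CPM per kb.

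The 85 ribosomal protein genes summed to 14.6% of all counts, with 13.7% to 15.6% in a library, and 82 of them were at 1 CPM or more in every library. Rpl10l, a testis gene, had 0 counts. Rpl36 was the least even by dispersion with 495, 320, 484 and 546 CPM, lowest in replicate 2. Many of these genes have processed pseudogenes that can share their reads, so their counts are uncertain. The mitochondrial protein-coding genes took 4.06% of counts, and mt-Co3, the least even of them by dispersion, had 623, 369, 503 and 616 CPM. The 84 nuclear genes of oxidative phosphorylation took 1.11%, at a median of 66.2 CPM per kb, led by Cox4i1, Cox8a and Ndufa4 at 667, 547 and 329. Cox6a1 was the least even member with 117, 110, 188 and 109 CPM, and the tissue-restricted Cox6a2, Cox8b, Cox8c and Ndufa4l2 had 0 counts.

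Antigen presentation genes were high, and of the 36 lists theirs had the most even sum. Its 17 genes totalled 11625, 11638, 11866 and 11818 CPM, a CV of 1.05%. Single members varied more, with a median CV of 10.5% over the 16 that passed the filter. B2m alone had 4465, 4117, 4839 and 4634 CPM. B2m, H2-K1 and H2-D1 led at 5249, 1465 and 741 CPM per kb. The class II gene H2-Ab1 had 42.1, 75.8, 45.4 and 47.6 CPM, and Cd74, the least even member, had 35.9, 49.7, 45.7 and 24.0. All 30 interferon-stimulated genes in the table had a count and 29 were at 1 CPM or more in every library, led by Ly6e, Lgals3bp and Gbp2 at 366, 124 and 51.0 CPM per kb. Rsad2, an antiviral enzyme and the least even of them, had 84.2, 45.4, 118 and 58.2 CPM. In the Ifitm family, Ifitm3 was the highest at 1474 CPM per kb, before Ifitm1 at 1349 and Ifitm2 at 294, and Ifitm6 had 0 counts. Ifitm7 was the least even of the family with 15.3, 6.86, 6.92 and 15.1 CPM.

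**Figure D3:**
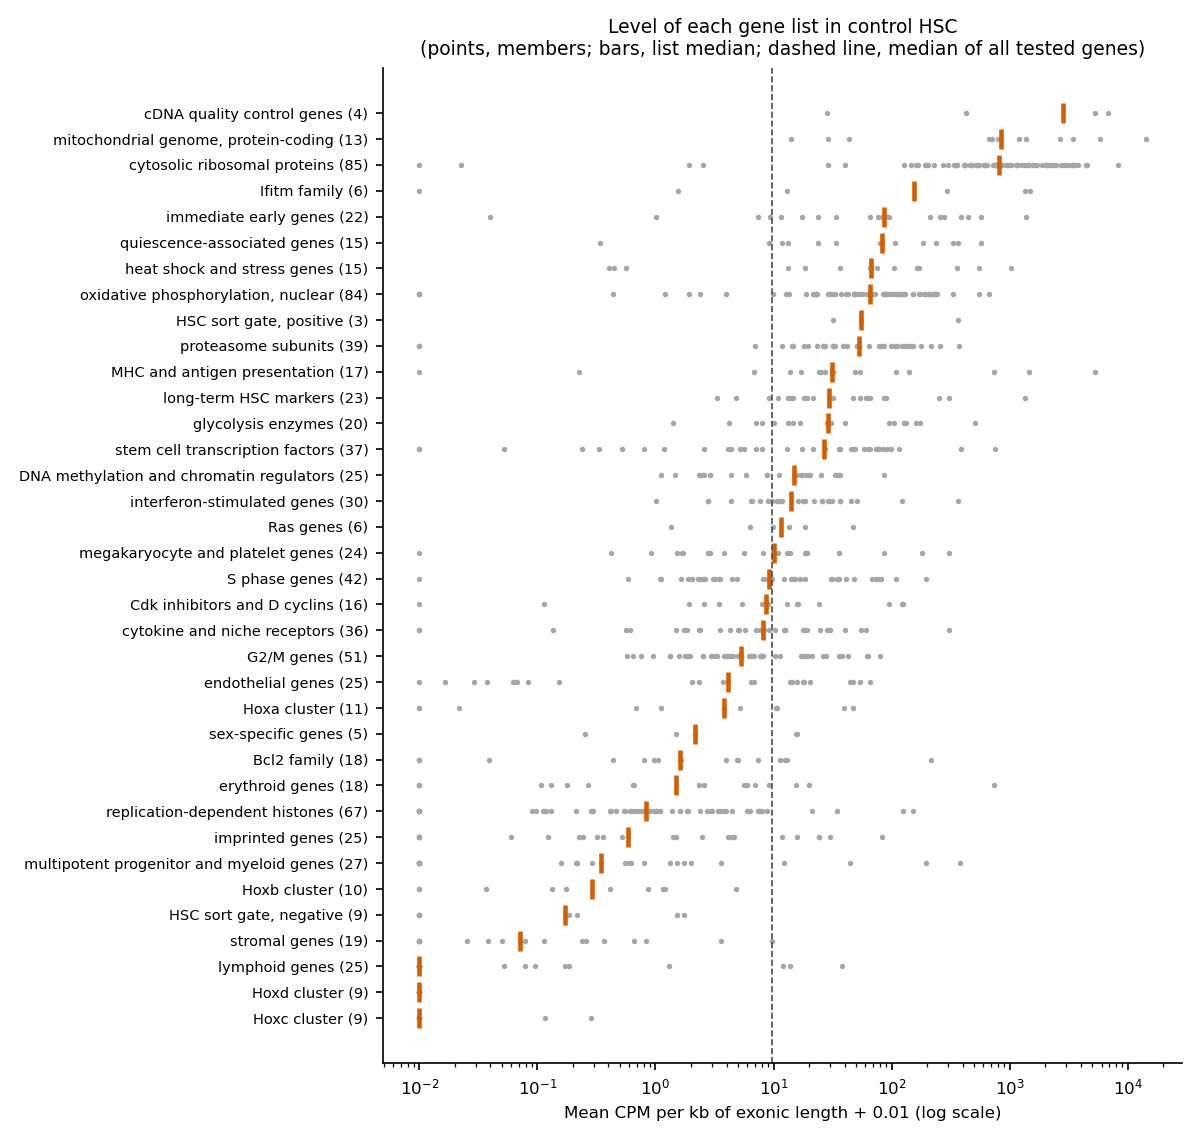
Grey points give the mean level of each list member over the 4 control libraries, as CPM per kb of exonic length plus 0.01 on a log scale, orange bars the list medians, and the dashed line the median of the genes that passed the filter on low counts, 9.66 CPM per kb (number of members in parentheses). The medians of 18 of the 36 lists lie to the right of the line, with the mitochondrial and ribosomal genes among the highest and the platelet genes the closest to the line. With the longest transcript the platelet median is 10.2, below the 11.8 of all genes.

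Of 37 stem cell transcription factors in the table, 32 were at 1 CPM or more in every library and 27 at 10 CPM or more. Lmo2, a bridging cofactor of Tal1, led with 1716, 1488, 1488 and 1769 CPM, or 746 CPM per kb. Egr1, a zinc finger factor of the immediate early response, had 1302, 1023, 1102 and 1370 CPM, and Gata2 had 409, 368, 405 and 359 CPM. Their CVs were 9.17%, 13.6% and 6.59%. Nr4a1, an orphan nuclear receptor linked to quiescence, was the least even with 117, 252, 247 and 147 CPM. Pax5, a B cell factor, and Sox17, a factor of fetal HSC, had 0 counts, and Cebpa, of the granulocyte lineage, averaged 0.605 CPM.

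The HOX clusters were not used alike. Of 11 Hoxa genes, 7 were at 1 CPM or more in every library, led by Hoxa9 with 178, 142, 164 and 168 CPM, then Hoxa5 and Hoxa7 per kb. Hoxa7 was the least even of the cluster with 43.8, 16.1, 22.0 and 39.9 CPM, lower in replicates 2 and 3. Hoxa10, the gene whose homeodomain is part of the fusion protein that the series studies, had 39.6, 35.8, 43.8 and 41.6 CPM. Hoxa11 and Hoxa13 had 0 counts. Of 10 Hoxb genes, 4 reached 1 CPM in every library, Hoxb5, Hoxb6 and Hoxb9 were the highest per kb at 4.82, 1.21 and 1.16 CPM, and Hoxb8 and Hoxb13 had 0 counts. The level of Hoxb9 rested on replicate 1, with 7.26, 1.72, 1.29 and 1.64 CPM, and its mean of 2.98 CPM was 1.54 CPM without that library. In the Hoxc cluster 7 of 9 genes, and in the Hoxd cluster all 9 genes, had 0 counts.

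Receptors for cytokines and the niche ranged widely. Of 36, 32 were at 1 CPM or more in every library, with Tnfrsf1a, a TNF receptor, and Kit among the highest at 60.3 and 54.5 CPM per kb. Csf1r and Il7r had 0 counts. Selp, which encodes P-selectin (chromosome 1, 166045395 to 166080157), had the highest dispersion over the trend of the list and of all genes at a mean of 10 CPM or more. It had 8.35 and 7.09 CPM in replicates 1 and 4 and 47.1 and 79.7 CPM in replicates 2 and 3, so that the highest library was 11.25 times the lowest. By that ratio Thbs1, at 22.4, and Ttc5, at 32.1, were less even. Cxcr4, the receptor for the niche chemokine Cxcl12, had 11.8, 0.381, 1.93 and 11.3 CPM, low in replicates 2 and 3.

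Genes tied to quiescence were high. The 15 genes of that list had a median of 83.2 CPM per kb, with Zfp36, Txnip and Zfp36l2, of which the first and last encode proteins that destabilize mRNA, at 574, 368 and 330 CPM per kb. Their sum varied by a CV of 4.09%. Klf4, a Krüppel-like factor, was the least even with 80.8, 49.8, 88.3 and 71.4 CPM. Among Cdk inhibitors and D cyclins, 14 of 16 were at 1 CPM or more, led by Cdk4, Ccnd2 and Ccnd3 at 125, 123 and 95.5 CPM per kb, and Cdkn2a had 0 counts. Cdkn1c (p57), an inhibitor that holds HSC in quiescence, had 69.4, 27.8, 26.0 and 63.0 CPM, lower in replicates 2 and 3. Cdkn1a (p21) went the other way with 7.44, 17.0, 16.2 and 6.95 CPM, while Cdkn1b (p27) had 8.17, 5.81, 10.1 and 10.6 CPM.

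Most cell cycle genes were present. Of 42 S phase genes 41 were at 1 CPM or more in every library, with a median of 9.23 CPM per kb, led by Pcna, Rfc2 and Mcm6 at 194, 108 and 81.5, and Fen1 had 0 counts. The S phase median lay below the 9.66 of all genes tested, but above it with length capped at 3 kb (16.2 against 14.6) and with the longest transcript (13.6 against 11.8). Of 51 G2/M genes 50 were at 1 CPM or more and 26 at 10 CPM or more, with a median of 5.32 CPM per kb. Cks2, Lbr and Cks1b led at 79.8, 62.5 and 61.6 CPM per kb. Ube2c, a ubiquitin-conjugating enzyme of mitotic exit, was the least even with 6.35, 36.0, 39.3 and 25.5 CPM. Mki67, the proliferation marker, had 27.8, 47.3, 49.1 and 29.4 CPM. Replicates 2 and 3 held the 2 highest values for 27 of the 40 G2/M genes at a mean of 10 CPM or more, beside 22.9% of the 9437 genes at that level. In these bulk libraries, fewer cells of a kind and less RNA per cell cannot be told apart. Of 67 replication-dependent histone genes, 14 were at 1 CPM or more in every library and 8 had 0 counts. Most of their mRNAs lack a polyA tail, and the libraries were made from polyA RNA. Hist1h1c, Hist1h2bc and Hist1h4i were the highest at 152, 124 and 34.5 CPM per kb, and Hist1h2ac was the least even with 84.2, 29.3, 35.9 and 60.9 CPM.

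Immediate early genes were high, at a median of 86.1 CPM per kb over 22 genes. Fos had 3696, 2487, 2994 and 3736 CPM, or 1373 CPM per kb, and Zfp36 and Ier2 followed at 574 and 443. Replicates 1 and 4 lay above replicates 2 and 3 for Fos, Egr1, Dusp1 and Dusp2, and below them for Atf3, Fosl2, Nr4a1, Nr4a2, Junb and Socs3. The list sum ran from 8504 to 10293 CPM, a CV of 8.77%, while these members differed between libraries in opposite directions. They were chosen after their values were seen.

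The heat shock and stress list was the least even of the lists with a sum above 1000 CPM. Its 15 genes totalled 6685, 10505, 8977 and 6440 CPM, a CV of 23.8%. Hsp90ab1 had 2672, 3941, 3016 and 2594 CPM, Hspa8 had 1805, 3068, 2472 and 1726 CPM, and Atf4, the factor of the integrated stress response, had 539, 685, 714 and 540 CPM. Replicates 2 and 3 held the 2 highest values for 11 of its 12 genes at a mean of 10 CPM or more, the exception being Trib3 with 43.9, 28.1, 38.0 and 46.1 CPM. Of 12 tested, 10 had a dispersion above the trend at their level, or 83.3%, against 34.7% of all 11688 genes. Hspa1a and Hspa1b, near-identical inducible chaperone genes, stayed at 3.14 CPM or less in every library.

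Among metabolic genes, the glycolytic enzymes were all present. The 20 of them were at 1 CPM or more in every library, led by Ldha, Aldoa and Pkm2 at 510, 173 and 161 CPM per kb, and Hk2, hexokinase 2, was the least even with 40.1, 73.2, 97.5 and 28.9 CPM. Gapdh, a housekeeping gene that with B2m and Actb served to check the amplified cDNA, had 60.8, 70.9, 68.5 and 54.4 CPM. Gapdh has many processed pseudogenes, so reads can be lost from its count. B2m and Actb stood at 5249 and 430 CPM per kb, and Actb varied by a CV of 19.3%. All 25 DNA methylation and chromatin regulators were present, led by Idh2, Eed and Rnf2 at 86.7, 36.6 and 36.2 CPM per kb. Eed, of the Polycomb repressive complex, was the least even with 56.5, 82.8, 115 and 70.0 CPM. Of 39 proteasome subunits 37 were at 10 CPM or more in every library and 2 had 0 counts, and the list was led by Psmb1, Psmb4 and Psma6 at 369, 255 and 214 CPM per kb, and Psmd6 was the least even with 101, 119, 167 and 88.7 CPM. In the Bcl2 family Mcl1, which protects HSC from apoptosis, led at 217 CPM per kb with 674, 1014, 762 and 579 CPM, before Bcl2 and Bid at 13.0 and 12.6, and Bcl2a1a, Bik and Hrk had 0 counts.

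The imprinted genes had a median of 0.578 CPM per kb and the Ras genes one of 11.7. Of 25 imprinted genes 13 were at 1 CPM or more in every library, with Ndn, Impact and Phlda2 at 83.3, 30.0 and 24.2 CPM per kb, Cdkn1c the least even, and Zim1, Peg10, Slc38a4, Usp29 and Nap1l5 at 0 counts. All 6 Ras genes were at 1 CPM or more, led by Rras, Nras and Rras2 at 46.7, 18.4 and 13.5 CPM per kb. Nras had 95.3, 80.5, 68.9 and 95.0 CPM, and Rras2 was the least even with 24.1, 21.4, 45.2 and 31.6.

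A value of 0 did not always mean that a gene could be counted. In the annotation of the files' build, exons of different genes overlap on either strand. Of 146 protein-coding genes with over 99% of their exonic bases inside exons of another gene, 142 had 0 counts in all control libraries, or 97.3%, and none reached a mean of 1 CPM. Of 17600 protein-coding genes that shared no exonic base, 6805 had 0 counts, or 38.7%. Psmb9, an immunoproteasome subunit that shared 99.97% of its exonic bases with Tap1 and a further entry of its own name, had 0 counts while Tap1 had 180, 173, 143 and 184 CPM. Fen1, an endonuclease of DNA replication, shared 84.2% with 2 other genes and had 0 counts. Of the 82 list members with 0 counts, 5 shared over 50% of their exonic bases and 62 shared none, Cd3e among them. The part of overlap in these values was not tested.

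Median level changed little with gene length until it was divided by length. Median CPM over protein-coding genes that passed the filter was 28.8 below 1 kb of exonic length and 42.0 above 8 kb, while median CPM per kb fell from 37.6 to 3.99. Short genes, such as those of ribosomal proteins, therefore rank higher per kb than in CPM.

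The spread between the 4 libraries fell with level. The median CV was 9.17% for the 99 genes at 1000 CPM or more, 12.1% for 1985 genes from 100 to 1000, 19.1% for 7353 genes from 10 to 100, 44.9% for 3800 genes from 1 to 10, and 138% for 4850 genes below 1 CPM. Counting noise alone would give medians of 0.842%, 2.80%, 5.84%, 19.5% and 79.0% in these classes. The common dispersion, the variance between libraries beyond counting noise relative to the squared mean, was 0.0572, a biological coefficient of variation of 23.9%, and it was 0.119 with every gene that had a count. Of 9437 genes at a mean of 10 CPM or more, 182 had a CV above 50%.

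Spread also differed between gene classes at like level, as the log2 ratio of a gene's dispersion to the trend. Its median was -0.10 over all 11688 genes, of which 34.7% lay above the trend. The ribosomal protein genes had a median of -0.12 with 25.6% above the trend, and the MHC list one of -0.16 with 43.8% above it. For the ribosomal list the median was -0.052 without replicate 1, beside -0.057 over all genes tested, and -0.058 without replicate 4, beside -0.073. Without replicate 2 the MHC median was -0.11, beside -0.12 over all genes tested. The heat shock list had a median of 0.33, the G2/M list 0.18 with 62.5% above the trend, and the immediate early list 0.12 with 66.7%. These 3 medians lay lower with certain replicates left out, from which no dependence on a single library can be read. The fit draws each gene's dispersion toward the trend, with a weight given as prior degrees of freedom. That weight was 12.4 with all 4 libraries, 18.6 without replicate 1, 9.37 without replicate 2 and 14.7 without replicate 4. Ratios of different fits, also for the ribosomal and MHC lists, are therefore not on 1 scale. Without replicate 1 the heat shock median was 0.15 and the G2/M median -0.03, beside -0.06 over all genes tested. Without replicate 2 the immediate early median was -0.0085, beside -0.12. The long-term HSC markers had a median of -0.03 with 43.5% above it.

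**Figure D4:**
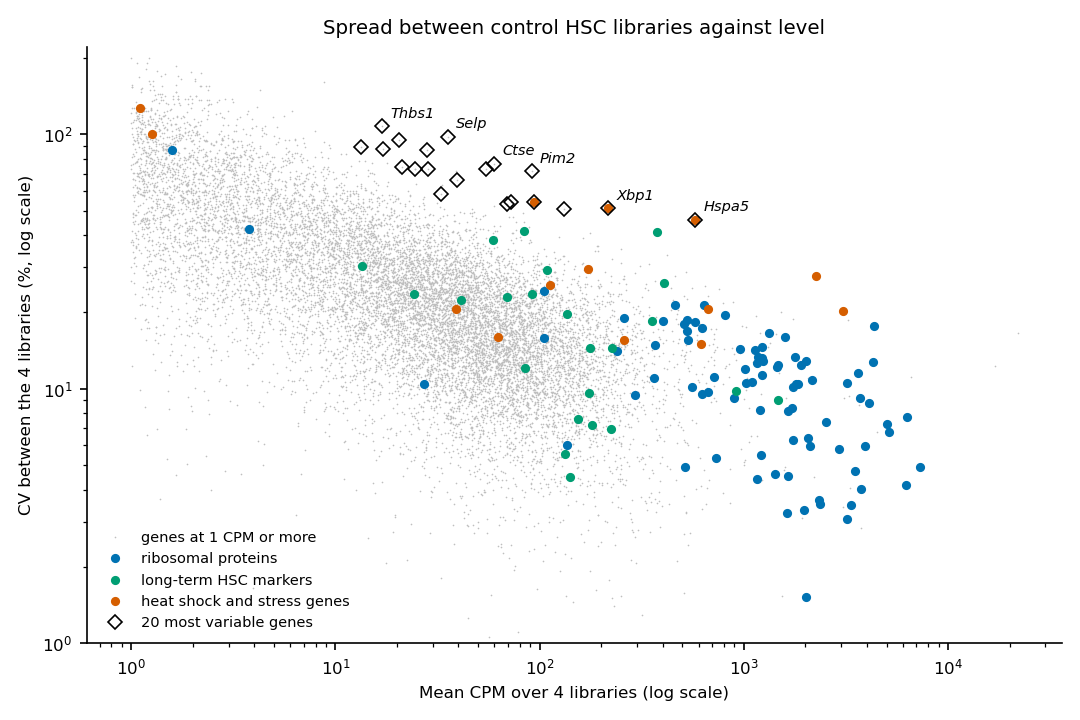
Each grey point is a gene, with its mean CPM over the 4 control libraries against the CV between them in percent, both on log scales, and 3 lists and the 20 most variable genes are marked. Median CV falls from 44.9% at 1 to 10 CPM to 9.17% at 1000 CPM or more, and Xbp1 and Hspa5 stand above genes of like level.

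The 20 genes with the highest ratio to the trend at a mean of 10 CPM or more include surface proteins, a kinase, transcription factors and chaperones. Their ratios, which chose them, ran from 2.51 for Selp down to 1.37. Pim2, a survival kinase (chromosome X, 7455388 to 7460558), had 41.0, 160, 135 and 29.8 CPM. Fosl2, an AP-1 subunit, had 17.6, 92.1, 87.0 and 22.8 CPM. Thbs1, the matrix protein thrombospondin 1, had 1.82, 40.6, 21.6 and 3.54 CPM, and Vldlr, a lipoprotein receptor, had 8.71, 40.1, 56.6 and 6.95 CPM. In these 4 genes replicates 2 and 3 were the high libraries and did not overlap with replicates 1 and 4.

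The same order of libraries held for the genes of the unfolded protein and heat shock responses among the 20. Xbp1, a transcription factor of the endoplasmic reticulum (ER) stress response, had 135, 345, 276 and 113 CPM. Hspa5 (BiP), the ER chaperone (ENSMUSG00000026864, chromosome 2, 34627490 to 34632051), had 385, 831, 782 and 314 CPM. Atf3, of the stress response, had 77.2, 200, 175 and 71.0 CPM. Hsph1, a large heat shock protein, had 41.2, 137, 138 and 59.4 CPM, and Nupr1, a stress-induced nuclear protein, had 27.4, 93.0, 106 and 50.1 CPM.

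Bcl3, Bhlhe40, Slfn2 and Hes1, which encode regulators of transcription or, for Slfn2, of T cell quiescence, were also highest in replicates 2 and 3. The cyclin Ccna2 was among them too, with 7.44, 53.9, 36.1 and 33.9 CPM, but replicate 4 lay close to replicate 3. Ctse, the protease cathepsin E, ran the other way with 103, 22.97, 17.6 and 96.3 CPM. So did an entry named Pde4d (ENSMUSG00000074661, chromosome 13, 110744317 to 110746171), with 43.4, 12.7, 6.19 and 35.7 CPM. Its 1855 exonic bases are its whole span, so its level may not be that of the full cAMP phosphodiesterase gene. The remaining members followed no such order. Ttc5, a cofactor of p53, had 6.35, 1.24, 39.8 and 34.5 CPM, and the chemokine Cxcl10 had 28.1, 3.05, 17.9 and 4.36 CPM.

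In all, replicates 2 and 3 held the 2 highest values for 16 of the 20 genes, and replicates 1 and 4 for 2. Over the 182 genes with a CV above 50% the counts were 66 and 61, or 36.3% and 33.5%, and no other pair of libraries held more than 9.89%. Over all 9437 genes at a mean of 10 CPM or more the shares were 22.9% and 21.0%, against 13.5% to 14.6% for each of the other 4 pairs. For the 28 stem cell transcription factors at that level, replicates 1 and 4 held the 2 highest values for 12. The 20 immediate early genes at that level were divided, with the 2 highest values in replicates 2 and 3 for 7 (35.0%) and in replicates 1 and 4 for 6 (30.0%). The 81 ribosomal protein genes at that level followed another order, with the 2 highest values in replicates 1 and 3 for 29, in 3 and 4 for 26, in 2 and 3 for 18 and in 1 and 4 for 4.

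Total counts and Xist ordered the libraries in this way as well. Replicates 2 and 3 had the larger totals, 10639180 and 12610189 counts against 5464815 and 7190197. Xist, the RNA of the inactive X chromosome (chromosome X, 100655714 to 100678556), had 0, 13.4, 3.62 and 0 CPM. The Y-linked genes had counts in all 4 libraries and were lower in replicates 2 and 3 for Eif2s3y, with 88.2, 39.1, 40.9 and 89.0 CPM, for Ddx3y, with 89.5, 60.6, 61.9 and 78.3 CPM, for Kdm5d, with 15.3, 8.87, 6.76 and 16.4 CPM, and for Uty, with 23.1, 4.86, 7.64 and 9.95 CPM. The labels give no sex. Depth, Xist and the levels of the variable genes order the libraries alike and cannot be told apart here.

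**Figure D5:**
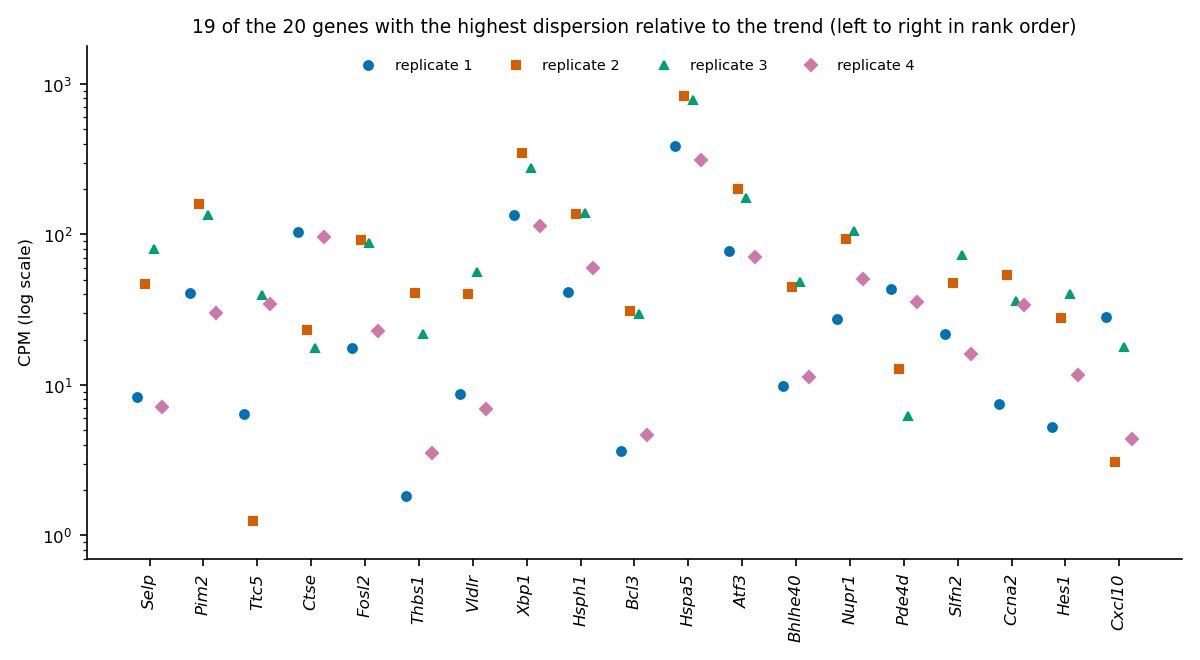
Each point is the CPM of a gene in 1 of the 4 control libraries on a log scale, for 19 of the 20 genes with the highest dispersion relative to the trend. Replicates 2 and 3 (squares and triangles) are the 2 highest for 15 of those shown, and replicates 1 and 4 (circles and diamonds) for Ctse and the short entry named Pde4d.

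Promoter windows were matched by symbol for 14 of these 20 genes, and that of Pde4d may not belong to the short entry of that name. None held TATAAA, and none held the cAMP response element TGACGTCA, which was found in 1.79% of all 32851 windows. CCAAT on either strand was in 8, and in 37.4% of all windows. The ER stress response element, CCAAT and CCACG spaced by 9 free bases, was in 1 (Hspa5) and in 0.119% of all windows. The heat shock element, TTC, GAA and TTC each spaced by 2 free bases, was in 1 (Hsph1) and in 0.603%. All were searched on both strands, and every match to the ER stress element also holds CCAAT. The motifs were chosen after the genes were known. The 250 bases before the start of Hspa5, at chr2:34771840-34772089 on the plus strand, are shown because it was the most abundant of the variable genes and carries that element, in capitals, with its first base 65 bases before the start.
Hspa5: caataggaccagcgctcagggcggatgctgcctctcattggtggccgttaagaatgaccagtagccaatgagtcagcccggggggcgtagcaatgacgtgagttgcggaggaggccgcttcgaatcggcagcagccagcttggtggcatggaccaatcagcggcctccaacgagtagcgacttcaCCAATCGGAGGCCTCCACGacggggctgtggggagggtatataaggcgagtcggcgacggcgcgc
A match is a description of the sequence and not a site that was tested. No match means only that these letters are not in that window.

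The most even genes at 100 CPM or more stood at the other end, by the lowest ratio to the trend, and were chosen for it. Bscl2, the seipin of lipid droplets, had 139, 139, 139 and 142 CPM. Scap, the sterol sensor that escorts SREBP, had 105, 104, 102 and 107 CPM. Atp5c1, the gamma subunit of ATP synthase, had 464, 461, 459 and 459 CPM, a CV of 0.487%. These values varied less between libraries than genes of like level did, whose median CV was 12.1%.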

How the data were processed

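RNA-Seq was analysed in the 4 libraries labelled as control. Per the labels and the study's methods, the authors amplified full-length cDNA from sorted aliquots, prepared Nextera XT libraries, mapped the reads by HISAT2 (genome NCBIM37) and obtained gene counts from featureCounts. Versions and settings were not given in the sources used here. The deposited table holds these raw counts, with no normalization, for 37991 Ensembl IDs; 3 columns without a sample were not used. Symbols, positions and exonic lengths (union of exons) came from GENCODE vM1 on NCBIM37, which held 37205 IDs.

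CPM were counts over the library total times its TMM factor (edgeR 4.0.16, R 4.3.3). Dispersions came from estimateDisp with an intercept only, after filterByExpr, which left 11688 genes. SD is over n = 4 libraries. There was 1 group, so no test was made and no p is given. DESeq2 size factors, totals alone, other filters, other lengths and leaving out each replicate were tried. Scripts were tested on simulated data.

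The 36 gene lists and the rules were chosen with earlier results of these data known. Of 900 list entries, 10 were not found. Named by rule were the gate genes, each list's 3 highest members per kb, its members at 0 counts and its member with the highest dispersion ratio at 10 CPM or more, the 20 highest and 20 most variable genes, and the sex-linked genes. Other genes named, and the 3 most even genes, which lead the 10 most even at a mean of 100 CPM or more, were chosen after their values were seen. Not every list member at 0 counts is named: of 82, those of the histone, Hoxc, Hoxd and proteasome lists are given as counts. Some genes named by the rule are not reported here and are left out of the figures; they remain in the counts.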

Additional observations from a re-analysis of the deposited data

Results flagged for a closer look

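Among 192 values given a Dixon ratio (the gap of an extreme library to its neighbour over the whole range), 10 passed the 95% critical value for 4 libraries. Chance alone passes about 1 in 20 groups. In the Hoxa cluster the summed level was lowest in replicate 2, at 282 CPM against 350, 353 and 356, with a ratio of 0.922. For the DNA methylation and chromatin regulators it was highest in replicate 2, at 2081 CPM against 1906 to 1932, with a ratio of 0.851. Replicate 3 stood above the others for Hoxa5 with 95.3 CPM against 66.3 to 67.2 (ratio 0.969), for Cox6a1 with 188 against 109 to 117 (0.901), for Psmb1 with 430 against 363 to 371 (0.884) and for Pecam1 with 38.1 against 9.08 to 14.0 (0.8294). Replicate 1 stood above the others for Hoxb9 with 7.26 CPM against 1.29 to 1.72 (0.928) and for Bcl2 with 103 against 89.2 to 91.2 (0.858). H2-D1 was highest in replicate 2 with 2007 CPM against 1878 to 1900 (0.834), and Hist1h4i in replicate 4 with 23.2 against 16.5 to 17.4 (0.872). Their causes were not tested.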

How the results depend on the processing

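No paired analysis was possible because the 4 libraries form 1 group with no contrast. The number of genes at 1 CPM or more in every library, 11837, was the same number under DESeq2 size factors and under library totals alone. It ranged from 11979 to 12137 with 1 replicate left out, where a rise was nearly fixed in advance, because a gene then has fewer libraries to pass. At 5 CPM it was 9810. The share of the 100 highest genes moved from 26.5% to 24.2% without genes of the mitochondrial genome, and stayed between 26.4% and 26.6% with 1 replicate left out. The common dispersion of 0.0572 became 0.119 with no filter beyond 1 count in any library, ranged from 0.0465 (without replicate 3) to 0.0656 (without replicate 1), and was 0.0450 as the median of the trend fitted by DESeq2. Lists with a median level above that of all genes numbered 18 of 36, and 20 with length capped at 3 kb; 18 was also the number with the longest transcript, with the platelet list below and the S phase list above. No list but these and the Cdk inhibitors and D cyclins changed side. Lists with a median dispersion ratio above that of all genes numbered 28, and 25 to 29 under the alternatives. Of the 20 most variable genes, 13 to 16 stayed among the 20 with 1 replicate left out, and 19 or 20 under other scalings and filters. Leaving out 1 replicate moved the mean by over 1.5 times for 6 of 139 named genes at 10 CPM or more: to 9.04 CPM from 16.9 for Thbs1 and to 20.9 from 35.6 for Selp at the lowest, and likewise for Pecam1, Cxcl10, Uty and Vldlr. Of 6 named genes at 1 to 10 CPM, it did so for Hoxb9, Itgam and Xist. A mean of 4 cannot move by 1 SD when 1 value is left out, so the other means say nothing of stability. Of the other list values, 31 of 72 medians per kb moved with the choice of length, for example to 60.4 from 29.4 for the long-term HSC markers, and 46 of 272 median dispersion ratios moved, those of the heat shock, G2/M, immediate early, MHC and long-term HSC lists among them. With 4 libraries and totals of 12610189 counts or less, genes below 1 CPM are not resolved.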
